A study of Rattus norvegicus with 18 samples.

Results

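The small RNA of injured, neurotrophin-treated dorsal root ganglia (DRG) was compared with that of uninjured DRG 10 weeks after a lesion of the corticospinal tracts, to describe which microRNAs (miRNAs) still differed from naive ganglia in rats that had received neurotrophin-3 (NT3). The comparison used 12 of 18 libraries, 6 bPYX+NT3 and 6 naive, each from 1 adult Lister Hooded rat, with the C6 to C8 ganglia of a rat pooled. The bPYX+NT3 rats had both corticospinal tracts cut in the medullary pyramids (bilateral pyramidotomy, bPYX) and, 24 hours later, injections of an AAV1 vector carrying human NT3 under the CMV promoter into forelimb flexor muscles of 1 side, whose ganglia were taken. The bPYX+GFP rats, 6 in number, had the same lesion and the same vector with GFP, and are given here only beside the comparison. Naive rats had neither surgery nor vector, so that lesion, surgery, vector and NT3 cannot be told apart in a difference between bPYX+NT3 and naive ganglia. The lesion lies in the brainstem, so the ganglia themselves were not cut. Of 753 rat miRNAs listed, 373 exceeded 10 counts in 6 or more of all 18 libraries and were tested, and these held 99.988% of all miRNA counts.

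A miRNA is cut from a hairpin precursor whose 2 arms, named 5p and 3p, can each give a mature RNA, and it lowers the translation or stability of messenger RNAs that pair with its seed, bases 2 to 8. DRG hold the cell bodies of sensory neurons together with satellite glia, Schwann cells of the nerve root, blood vessels, connective tissue and immune cells. Large proprioceptive DRG neurons carry the NT3 receptor TrkC, and muscle is a natural source of NT3 for them.

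Mature sequences below are those of RefSeq (GRCr8), which held 350 of the 373 tested miRNAs, with the seed in capitals. The first 5 are shown because every bPYX+NT3 library lay below every naive library.
miR-361-3p: cCCCCAGGugugauucugauucgu
miR-301a-5p: gCUCUGACuuuauugcacuac
let-7i-5p: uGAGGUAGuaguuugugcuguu
miR-363-5p: cGGGUGGAucacgaugcaauuu
miR-181d-5p: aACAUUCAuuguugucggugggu

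The next 5 are shown because they were higher in bPYX+NT3 than in naive ganglia while bPYX+GFP ganglia lay close to naive, and miR-384-5p has the seed of miR-30a-5p, which was lower.
miR-193a-3p: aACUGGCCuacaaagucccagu
miR-137-3p: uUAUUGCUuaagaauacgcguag
miR-29a-5p: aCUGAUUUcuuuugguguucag
miR-582-5p: uACAGUUGuucaaccaguuacu
miR-384-5p: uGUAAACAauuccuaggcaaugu
miR-30a-5p: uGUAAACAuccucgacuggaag

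The last set is shown because the 2 arms of 1 precursor went opposite ways. The 5p arm of let-7g has the same seed as let-7i-5p, and the 5p arm of miR-195 has the seed of miR-15 and miR-16.
let-7i-3p: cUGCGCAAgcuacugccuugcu
let-7g-5p: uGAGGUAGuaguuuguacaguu
let-7g-3p: cUGUACAGgccacugccuugc
miR-195-5p: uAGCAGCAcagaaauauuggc
miR-195-3p: cCAAUAUUggcugugcugcucca

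Libraries of both groups were alike in depth. Naive libraries held 4124323 to 5189876 miRNA counts and bPYX+NT3 libraries 3879788 to 5027384. Entries that were left uncounted because their mapping quality was low made up 28.0% to 35.1% of a library. Such reads often come from miRNAs with identical or near-identical copies, and let-7a-5p, which has several gene copies, had only 30.2 to 43.9 CPM (per-million counts) in the 12 libraries. No 2 libraries of a group were duplicates, the smallest chi-square per degree of freedom between them being 29.8. One naive rat that the study treated as an outlier, naive replicate 1, was kept, and the calls that did not hold without it are named below.

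Sensory neuron miRNAs were abundant. miR-182 was at 19100 to 24410 CPM without TMM scaling in naive and 24590 to 28990 in bPYX+NT3 libraries, and miR-96-5p at 3945 to 4474 and 3776 to 5507, whereas miR-183-5p of the same cluster was listed at 0 in all 18 libraries. miR-124-3p, a miRNA of central neurons with several gene copies, had at most 7 counts in any library. Defining markers of glia (miR-338-3p and miR-219a-2-3p), skeletal muscle (miR-1-3p and miR-133a-3p) and endothelium (miR-126a-5p) were listed at 0 throughout, so other markers of those cells were read. These zeros and low counts are not read as levels, since whether they come from the way reads of several copies were counted was not tested. The highest values of red blood cell miRNAs were in the bPYX+NT3 group. miR-451-5p spanned 118 to 501 CPM without TMM scaling in naive and 251 to 1086 in bPYX+NT3 libraries. Its medians were 358 and 373, with no difference past the test (adjusted p = 0.687, edgeR). The value of 1086 CPM was that of bPYX+NT3 replicate 2 (4212 counts). The part of red blood cell miRNAs in the differences below was not tested.

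bPYX+NT3 ganglia differed from naive ganglia by small amounts in many miRNAs and by a large amount in few. At an unadjusted p under 0.05 (edgeR quasi-likelihood test), 51 of 373 miRNAs differed, which is 13.7% of those tested. Of these, 27 (7.24%) were higher and 24 (6.43%) were lower in bPYX+NT3. After Benjamini-Hochberg adjustment over all 373, this test called 0, the smallest adjusted p being 0.0885 for miR-361-3p, and DESeq2 called 1, the same miRNA (adjusted p = 0.000623), of 56 at an unadjusted p under 0.05. Below, a miRNA is called higher or lower where its unadjusted p was under 0.05, and the p printed beside it is the adjusted one. In these bulk samples, fewer cells of a type and less RNA per cell cannot be told apart.

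**Figure D1:**
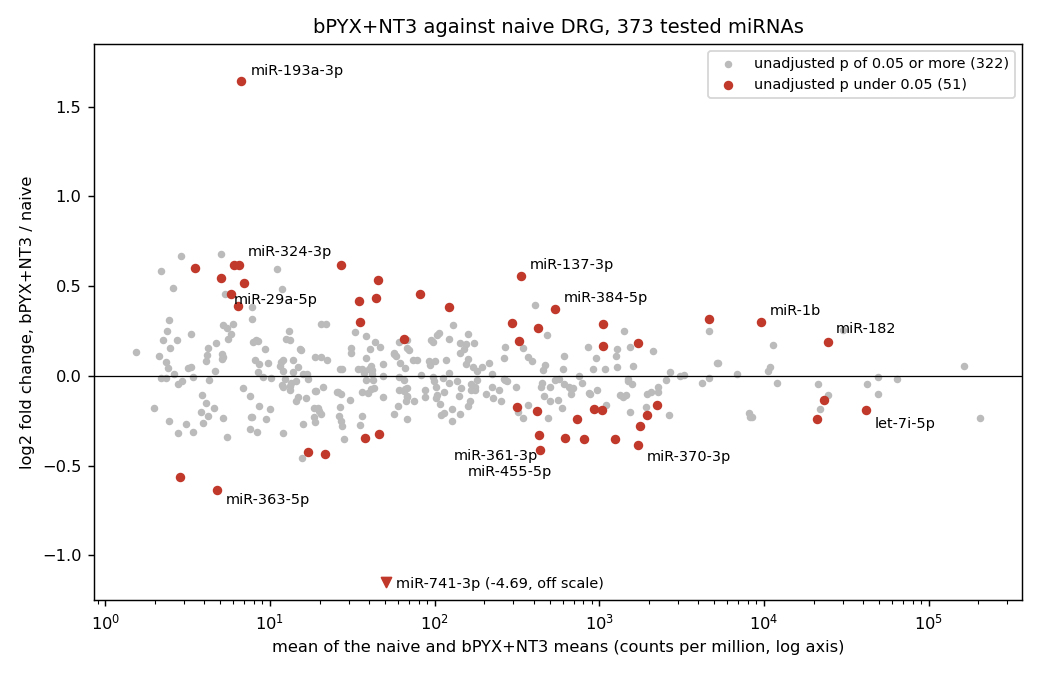
Log2 fold change of bPYX+NT3 over naive ganglia against mean abundance (CPM, log axis) for the 373 tested miRNAs, with the 51 at an unadjusted p under 0.05 in red. Of the 51, 39 lie between -0.5 and 0.5, whereas 8 of the 10 under 10 CPM lie outside, and miR-193a-3p (1.65) and miR-741-3p (-4.69, drawn at the lower edge) stand apart.

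The median absolute difference of the 51 was 0.35 on the log2 scale, or 1.27-fold, against 0.13 over all 373. Of the 51, 39 were under 0.5 and 2 were over 1. The 51 took 14.6% ± 0.58 of the counts in naive and 14.6% ± 0.84 in bPYX+NT3 libraries (SD, n = 6 each). Abundant miRNAs were measured more tightly: the median half-width of the 95% interval was 0.49 on the log2 scale under 10 CPM and 0.20 above 1000 CPM. The share at an unadjusted p under 0.05 was 12.7% under 10 CPM (10 of 79) and 23.4% above 1000 CPM (15 of 64). For 276 miRNAs (74.0%) the whole interval lay within 1.5-fold of naive and for 353 (94.6%) within 2-fold, including all of the 20 most abundant within 1.5-fold.

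The differences were not spread evenly over the rats. Of the 51, 43 lay past the naive range in bPYX+NT3 replicate 3 and 41 in replicate 5, against 21 to 29 in the other 4 rats. The 51 were called from these same libraries, so these counts describe the calls and are not a test of the rats. The same count over all 373 miRNAs was not made. Without replicate 3 the count was 32, of which 28 were among the 51. Without replicate 4, the rat with the fewest past the naive range, the count was 68 and 4 passed adjustment (miR-195-3p, miR-1b, miR-301a-5p and miR-361-3p). Without replicate 1 it was 54, with miR-324-3p past adjustment (adjusted p = 0.0362). Without naive replicate 1 it stayed at 51, of which 37 were the same. The 14 whose p was no longer under 0.05 without that rat were miR-741-3p, miR-182, miR-433-3p, miR-30e-3p, miR-205, miR-181d-5p, miR-30a-5p, miR-672-5p, miR-181b-1-3p, miR-363-3p, miR-499-5p, miR-532-5p, let-7g-3p and let-7g-5p. Over all alternatives run (leaving out each library, other scalings, filters and tests), 19 of the 51 kept their p under 0.05 each time and 7 lost it in more than 50% of them: let-7g-5p, let-7g-3p, miR-532-5p, miR-499-5p, miR-363-3p, miR-192-5p and miR-181b-1-3p. With library size alone as the scaling, 41 were higher and 13 lower, so the balance of directions depends on the scaling. That scaling moved the median of all miRNAs from -0.01 to 0.05.

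In 5 of 373 miRNAs (1.34%) the 2 groups did not overlap, and all 5 were lower in bPYX+NT3. Without bPYX+NT3 replicate 4 the number was 10, of which 3 were higher, but at the same scaling leaving out a library can only keep or raise it. With library size alone it was 3, of which 1 was higher. The 5 come from different precursors and have 5 different seeds.

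miR-361-3p was the miRNA with the smallest p. Its level was 648 to 788 CPM in naive ganglia (median 686) and 486 to 588 CPM in bPYX+NT3 ganglia (median 554). The fold change was -0.35 ± 0.07 on the log2 scale (SE; 95% interval -0.50 to -0.19), 0.786 of the naive level, with adjusted p = 0.0885 (edgeR). It kept an unadjusted p under 0.05 in 21 of 21 alternatives. Its other arm, miR-361-5p, was not lower (log2 fold change 0.18 ± 0.10, adjusted p = 0.399, edgeR). In bPYX+GFP ganglia miR-361-3p reached 626 CPM in the highest library, also below every naive library (adjusted p = 0.0315 against naive, edgeR), and bPYX+NT3 and bPYX+GFP ganglia differed by -0.01 (95% interval -0.16 to 0.13).

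let-7i-5p, the most abundant let-7 miRNA counted here, belongs to a family known for holding cells in a differentiated state. Naive ganglia had 42990 to 46510 CPM (median 44060) and bPYX+NT3 ganglia 36960 to 40020 CPM (median 39260). The groups were apart although the difference was small, a log2 fold change of -0.19 ± 0.06 or 0.876 of naive (adjusted p = 0.191, edgeR). In bPYX+GFP ganglia it was at 33410 to 50000 CPM (median 37740), with 5 of 6 libraries below every naive library and replicate 3 above them all. The log2 fold change of bPYX+GFP over the same naive libraries was -0.19 (adjusted p = 0.232), and the operated groups differed by 0.01 (95% interval -0.15 to 0.18). With library size alone the log2 fold change was -0.13 and its p was no longer under 0.05.

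miR-301a-5p comes from the arm of the miR-301a precursor that does not carry the seed of the miR-130 family. It was at 21.7 to 28.0 CPM (median 24.7) in naive and 15.7 to 20.9 CPM (median 18.5) in bPYX+NT3 ganglia, a log2 fold change of -0.43 ± 0.11 (adjusted p = 0.177, edgeR). bPYX+GFP ganglia overlapped both groups at 18.0 to 29.7 CPM, and the bPYX+NT3 group was 0.28 lower than bPYX+GFP on the log2 scale (adjusted p = 0.553, edgeR).

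miR-363-5p and miR-363-3p belong to an X-linked relative of the miR-17/92 cluster, a group of miRNAs known for promoting cell division. miR-363-5p was at 4.82 to 8.52 CPM (median 5.45) in naive and 2.22 to 4.45 CPM (median 3.89) in bPYX+NT3 ganglia (log2 fold change -0.64 ± 0.20, adjusted p = 0.191, edgeR). miR-363-3p, the abundant arm, was at 954 to 1335 CPM and 891 to 1063 CPM (-0.19 ± 0.09, adjusted p = 0.349), and these ranges overlapped. Their neighbour miR-20b-3p was also lower (-0.32 ± 0.14, adjusted p = 0.349). The p of miR-363-3p was not under 0.05 in 11 of 21 alternatives (log2 fold change -0.11 without naive replicate 6) and that of miR-20b-3p in 8 of 21. So 3 of the 6 tested miRNAs of that cluster were lower and none was higher, beside 6.43% lower over all miRNAs, with a median of -0.20; the cluster was singled out after its values were seen. In the whole list of miR-17/92 and its paralogs, 3 of 16 (18.8%) were lower and 0 higher, beside 13.7% of all miRNAs in either direction, and the median was -0.01, as over all miRNAs.

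miR-181d-5p, of a family best known in immune cells, was at 321 to 355 CPM (median 333) in naive and 264 to 316 CPM (median 300.5) in bPYX+NT3 ganglia. The log2 fold change was -0.17 ± 0.07 (adjusted p = 0.319, edgeR), and it lost its p under 0.05 in 8 of 21 alternatives, with -0.11 under library size alone.

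**Figure D2:**
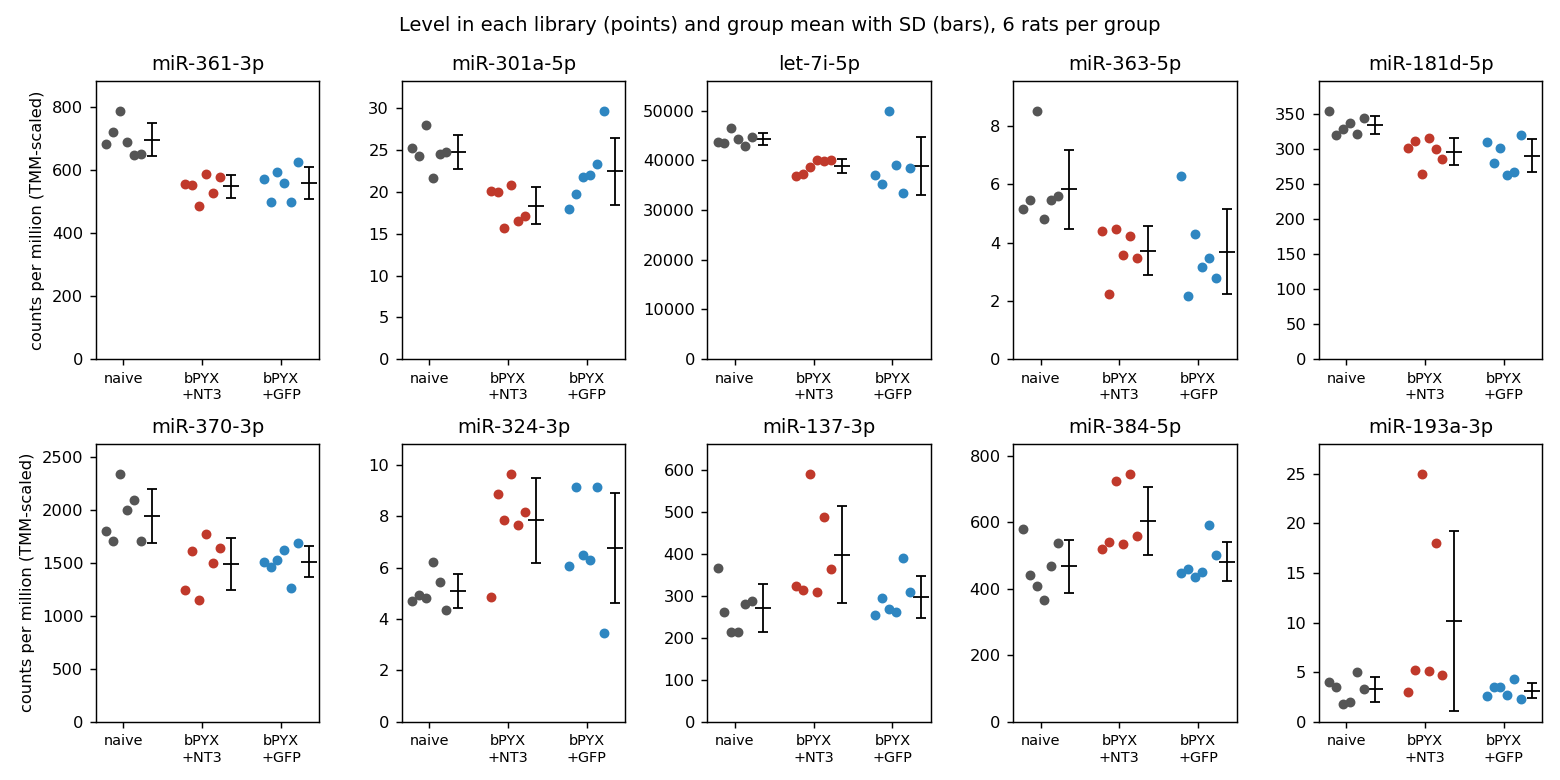
TMM-scaled CPM in each library (points, 6 rats per group), with the group mean and SD (bars), for 10 miRNAs; each axis starts at 0. In the first 5 panels every bPYX+NT3 point lies below every naive point, and in miR-193a-3p 2 bPYX+NT3 rats lie far above the rest.

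Several miRNAs were higher in bPYX+NT3 than in naive ganglia and not in bPYX+GFP ganglia at the same threshold. Both comparisons use the same 6 naive libraries, so they are given side by side, with the direct comparison of the operated groups. In that comparison miR-193a-3p, miR-137-3p, miR-384-5p, miR-29a-5p and miR-582-5p had an unadjusted p under 0.05, miR-138-5p did not, and none passed adjustment. miR-193a-3p had the largest positive fold change, at 1.75 to 5.06 CPM (median 3.39) in naive and 3.00 to 25.02 CPM (median 5.13) in bPYX+NT3 ganglia. The value came mostly from replicates 3 and 5, at 25.02 and 18.0 CPM (118 and 94 counts), while the other 4 rats had 3.00 to 5.17 CPM. The log2 fold change was 1.65 ± 0.50 (adjusted p = 0.191, edgeR), and it ranged from 1.16 to 1.89 over the alternatives. bPYX+GFP ganglia were at 2.30 to 4.27 CPM, and the bPYX+NT3 group was 1.72 higher than these (adjusted p = 0.217, edgeR).

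Of 11 neuron-enriched miRNAs tested, 2 were higher and 0 lower than naive in bPYX+NT3 ganglia (18.2%, near the 13.7% of all miRNAs), and the list median was -0.03. miR-137-3p, a miRNA known for its part in neuronal maturation, was at 213 to 367 CPM (median 272) in naive, 309 to 592 CPM (median 344) in bPYX+NT3 and 256 to 391 CPM in bPYX+GFP ganglia. Its log2 fold change over naive was 0.56 ± 0.18 (adjusted p = 0.191, edgeR) in bPYX+NT3 and 0.13 in bPYX+GFP, and the operated groups differed by 0.44 (adjusted p = 0.448). Replicates 3 and 5 were again the highest, and the other 4 bPYX+NT3 rats lay within the naive range. miR-138-5p, known for a role in dendritic spines and axon growth, was 0.29 ± 0.12 higher (adjusted p = 0.349), at 778 to 1066 CPM in naive and 888 to 1552 CPM in bPYX+NT3 ganglia. Replicates 3 and 5 were the highest here too, at 1552 and 1303 CPM, and the p was not under 0.05 without either of them or without naive replicate 3 or 4 (4 of 21 alternatives), with a log2 fold change of 0.19 without bPYX+NT3 replicate 3. Its log2 fold change in bPYX+GFP was 0.01, and the operated groups differed by 0.29 (adjusted p = 0.577, edgeR). miR-128-3p, the most abundant of the 11, had a log2 fold change of -0.21 (adjusted p = 0.456).

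miR-384-5p, a brain-enriched miRNA, was at 367 to 580 CPM (median 455) in naive, 521 to 747 CPM (median 549) in bPYX+NT3 and 437 to 591 CPM in bPYX+GFP ganglia. The log2 fold change over naive was 0.37 ± 0.13 (adjusted p = 0.219, edgeR), against 0.04 for bPYX+GFP, and the operated groups differed by 0.34 (adjusted p = 0.354). Replicates 3 and 5 again stood apart, at 724 and 747 CPM, while the other 4 bPYX+NT3 rats lay within the naive range. miR-30a-5p, with the same seed and far higher counts, went the other way, from 18860 to 25670 CPM (median 23130) in naive to 15130 to 22330 CPM (median 19670) in bPYX+NT3 ganglia (-0.24 ± 0.11, adjusted p = 0.349), with a p not under 0.05 in 8 of 21 alternatives, and bPYX+NT3 replicates 3 and 5 were the only ones below the naive range. Of the 4 tested miRNAs with the seed GUAAACA, 1 was higher and 1 lower, beside 13.7% of all miRNAs in either direction.

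miR-29a-5p is the less abundant arm of the miR-29a precursor, whose other arm is known for repressing collagens. It was at 4.42 to 6.56 CPM (median 5.91) in naive, 5.51 to 10.4 CPM (median 8.13) in bPYX+NT3 and 3.97 to 6.97 CPM in bPYX+GFP ganglia. The log2 fold change was 0.52 ± 0.17 (adjusted p = 0.191, edgeR) for bPYX+NT3 and -0.08 for bPYX+GFP, and the operated groups differed by 0.60 (adjusted p = 0.284). miR-582-5p, of similar abundance, was 0.54 ± 0.20 higher than naive in bPYX+NT3 (adjusted p = 0.278) and -0.10 in bPYX+GFP, with 0.65 between the operated groups (adjusted p = 0.217). Between bPYX+NT3 and bPYX+GFP, 8.58% of the 373 miRNAs had an unadjusted p under 0.05, and between bPYX+GFP and naive 21.2%.

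For 5 other miRNAs the fold changes of both operated groups over naive are given side by side; they share the 6 naive libraries, so that their likeness is not a result. miR-370-3p was at 1704 to 2340 CPM (median 1900) in naive and 1146 to 1773 CPM (median 1556) in bPYX+NT3 ganglia, with log2 fold changes of -0.39 ± 0.11 for bPYX+NT3 (adjusted p = 0.191, edgeR) and -0.36 for bPYX+GFP. miR-676 gave -0.35 and -0.30, miR-455-5p -0.41 and -0.28, miR-496-3p 0.42 and 0.45, and miR-770-5p 0.62 and 0.77, in the same order. For miR-455-5p, bPYX+NT3 replicates 3 and 5 were the lowest, at 274 and 296 CPM. The direct differences between the operated groups were -0.01, -0.04, -0.12, -0.03 and -0.13 for these 5, with adjusted p from 0.819 to 0.981 (edgeR). This does not show that they were equal, since the 95% intervals ran from -0.23 to 0.21 for miR-370-3p and from -0.66 to 0.40 for miR-770-5p, the widest of the 5.

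miR-379-3p and miR-30e-3p were nearer to naive in bPYX+NT3 than in bPYX+GFP ganglia. miR-379-3p was at 28.9 to 44.4 CPM (median 38.8) in naive, 31.2 to 65.0 CPM (median 55.3) in bPYX+NT3 and 60.2 to 93.8 CPM (median 69.1) in bPYX+GFP ganglia. The log2 fold change over naive was 0.43 ± 0.17 (adjusted p = 0.319) for bPYX+NT3 and 0.94 for bPYX+GFP, and the operated groups differed by -0.50 (adjusted p = 0.217, edgeR). For miR-30e-3p the values were 0.19 ± 0.09 (adjusted p = 0.349) and 0.46, with -0.25 between the operated groups (adjusted p = 0.217), and the p over naive was not under 0.05 in 6 of 21 alternatives for bPYX+NT3. Both were named after their values were seen.

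**Figure D3:**
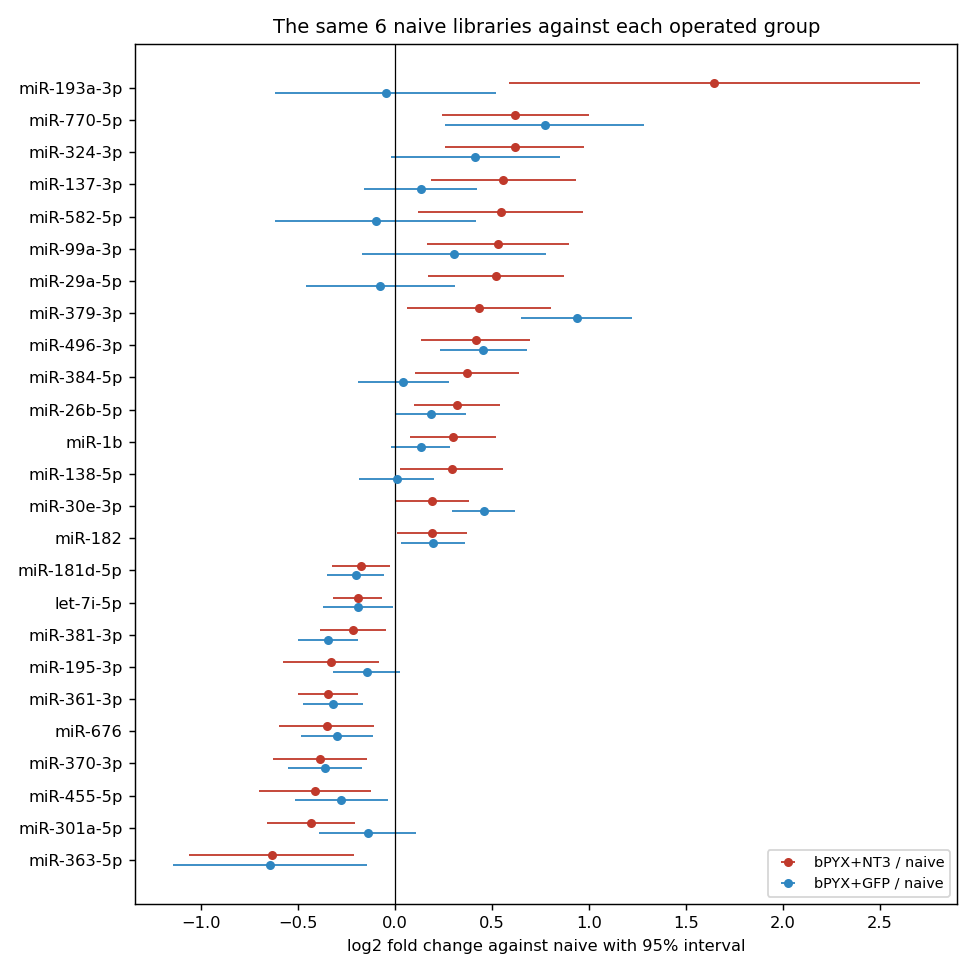
Log2 fold change over naive ganglia with its 95% interval for bPYX+NT3 (red) and bPYX+GFP (blue), for 19 of the 20 miRNAs of smallest p (miR-741-3p, at -4.69, is off scale) and 6 others named in the text. The red and blue points lie close together for miR-361-3p (-0.35 and -0.32), and apart for miR-193a-3p (1.65 and -0.05).

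Many of these miRNAs, among them miR-370, miR-770, miR-496 and miR-379, lie in the Dlk1-Dio3 region, an imprinted cluster whose miRNAs are made from the maternal chromosome and are abundant in the nervous system. Of the 69 tested, 6 were higher and 3 lower (13.0%, beside 13.7% of all miRNAs), and the median was 0.02. The higher ones were miR-770-5p (0.62), miR-337-3p (0.62), miR-379-3p (0.43), miR-496-3p (0.42), miR-376c-3p (0.30) and miR-433-3p (0.18). The lower ones were miR-370-3p (-0.39), miR-493-3p (-0.35) and miR-381-3p (-0.22). Of these 9, the p was not under 0.05 in 10 of 21 alternatives for miR-493-3p, in 5 for miR-376c-3p and for miR-433-3p, in 3 for miR-379-3p and in 2 of 20 for miR-337-3p, and it stayed under 0.05 in all alternatives run for the other 4. The cluster therefore held both directions, at a share near that of all miRNAs.

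Of 18 let-7 family miRNAs, 2 were lower and 2 higher (22.2%, beside 13.7% of all miRNAs). The lower ones, let-7i-5p and let-7g-5p, carry the family seed GAGGUAG, and the higher ones, let-7i-3p and let-7g-3p, are the opposite arms of the same precursors. let-7g-5p was at 23150 to 25650 CPM (median 24060) in naive and 20840 to 23900 CPM (median 21560) in bPYX+NT3 ganglia (-0.13 ± 0.06, adjusted p = 0.349, edgeR). Its p stayed under 0.05 in 3 of 21 alternatives, and that of let-7g-3p in 7 of 20. For let-7i-3p (0.38 with all libraries) the p was not under 0.05 without naive replicate 2 (0.34), bPYX+NT3 replicate 5 (0.34) or bPYX+NT3 replicate 3, where the log2 fold change was 0.24. None of the other 6 tested miRNAs with that seed had a p under 0.05, and their log2 fold changes were -0.23 for let-7a-5p (adjusted p = 0.353), -0.21 for let-7d-5p (adjusted p = 0.713), -0.02 for let-7c-5p, 0.01 for let-7f-5p, 0.03 for let-7b-5p and 0.04 for miR-98-5p. The values of let-7a-5p and let-7d-5p were thus further below naive than those of let-7i-5p and let-7g-5p, with wider errors (SE 0.11 and 0.23). Members of this family differ at few bases, and reads of one can be counted for another.

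The ratio of both arms of a precursor within a library does not depend on the scaling between libraries. This measure was chosen after the fold changes of both arms had been seen. Over 121 pairs of arms, 20 (16.5%) had a two-sided exact permutation p under 0.05, 11 with a higher and 9 with a lower share of the 3p arm, and none passed adjustment (smallest adjusted p = 0.262; 924 splits, smallest possible p = 0.00216). The count was 13 without naive replicate 1, naive replicate 3, bPYX+NT3 replicate 3 or bPYX+NT3 replicate 5.

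let-7i had the smallest p of the 121. The 3p arm had 0.203% to 0.286% of the counts of both arms in naive (median 0.228%), 0.264% to 0.525% in bPYX+NT3 (median 0.322%) and 0.214% to 0.416% in bPYX+GFP ganglia, a log2 ratio 0.55 higher in bPYX+NT3 than in naive (exact permutation p = 0.00433). In 5 of 6 bPYX+NT3 libraries the share was above every naive library. For let-7g the log2 ratio was 0.50 higher (exact permutation p = 0.0173) in bPYX+NT3 and -0.09 in bPYX+GFP against naive, with the 3p arm at only 4.59 to 10.4 CPM in these 12 libraries. miR-361 went the other way: its 3p arm held 77.8% to 83.8% of the counts in naive (median 80.6%) and 71.7% to 80.3% in bPYX+NT3 ganglia (median 74.3%), a log2 ratio of -0.53 (exact permutation p = 0.00866), and 71.1% to 76.1% in bPYX+GFP ganglia.

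miR-195 makes both arms in nearly equal amounts. miR-195-3p was at 417 to 551 CPM (median 482) in naive and 308 to 516 CPM (median 368) in bPYX+NT3 ganglia (-0.33 ± 0.12, adjusted p = 0.247, edgeR), and miR-195-5p at 324 to 419 CPM (median 394) and 355 to 613 CPM (median 464; 0.27 ± 0.12, adjusted p = 0.349), the latter with a p not under 0.05 in 7 of 21 alternatives and 0.18 without bPYX+NT3 replicate 3. The 3p arm held 50.6% to 63.0% of the counts of both in naive and 33.5% to 59.3% in bPYX+NT3 ganglia, a log2 ratio of -0.60 (exact permutation p = 0.0325). Of 6 tested miRNAs in the miR-15/16 list, these 2 arms of 1 precursor were at a p under 0.05 (33.3%, beside 13.7% of all miRNAs). A list of 6 cannot be told from that share. The miR-15/16 seed AGCAGCA, whose miRNAs are known for slowing the cell cycle, is that of miR-195-5p and not of miR-195-3p. Of 4 tested miRNAs with it, 1 was higher and 0 lower. The permutation p of the arm ratio of miR-195 was 0.05 or more without some single libraries, up to 0.0714 without naive replicate 3. Of all pairs, 5 had both arms at an unadjusted p under 0.05: besides let-7i, let-7g and miR-195, both arms of miR-152 and of miR-363 were lower.

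**Figure D4:**
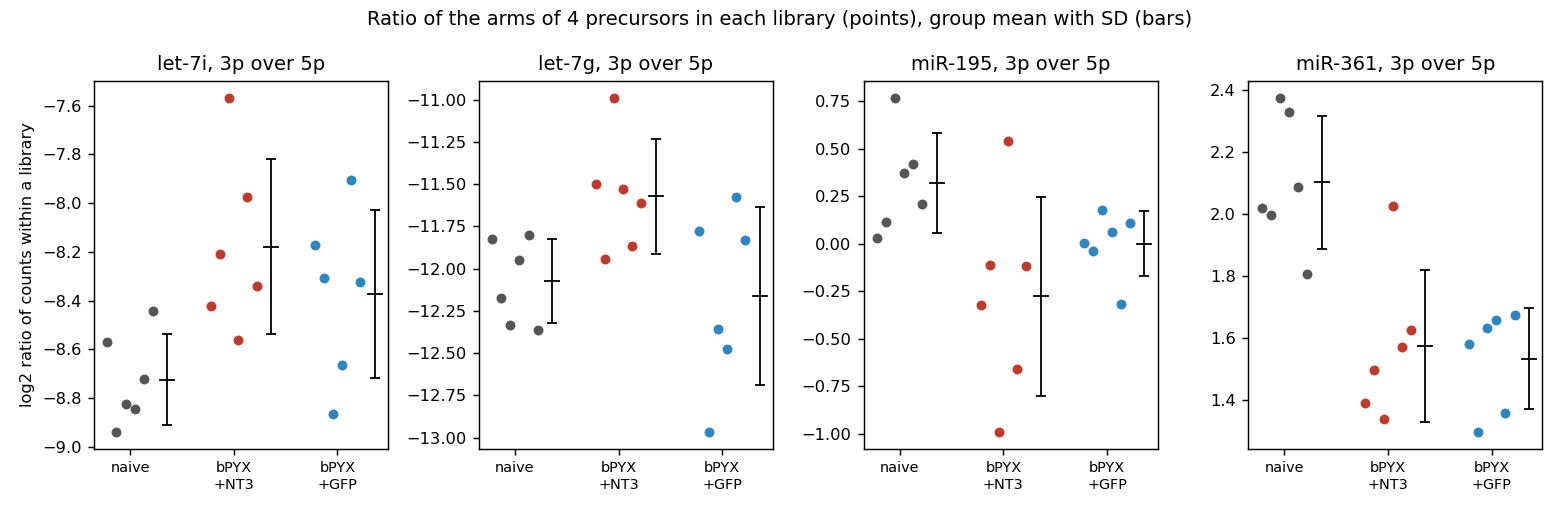
Log2 ratio of the 3p to the 5p counts of 4 precursors in each library (points), with the group mean and SD (bars). The ratio of let-7i is above every naive library in 5 of 6 bPYX+NT3 libraries, and that of miR-361 is below every naive library in 5 of 6.

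The lists of miRNAs known from nerve injury (4 tested), neurotrophin and activity signalling (4) and inflammation (5) held none at an unadjusted p under 0.05, beside 13.7% of all miRNAs, and lists this short cannot be told from that share. miR-21-5p, which is known to rise in DRG neurons after a nerve is cut, was at 14660 to 30840 CPM (median 21920) in naive and 15550 to 31540 CPM (median 19070) in bPYX+NT3 ganglia, a log2 fold change of -0.04 with a 95% interval from -0.43 to 0.34. The other 3 tested members of that axotomy list were miR-221-3p (0.23, adjusted p = 0.394), miR-222-3p (0.16, adjusted p = 0.394) and miR-221-5p (-0.17, adjusted p = 0.473). miR-132 and miR-212, which the transcription factor CREB switches on downstream of neurotrophins, gave -0.19 to 0.18 over 4 arms, and miR-132-5p had an interval from -0.57 to 0.20.

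In the inflammation list, miR-146b-5p, an NF-kappaB-induced brake on innate immune signalling, was at 7042 to 11750 CPM (median 8557) in naive, 6690 to 9025 CPM (median 7682) in bPYX+NT3 and 5383 to 7489 CPM (median 6214) in bPYX+GFP ganglia. Its log2 fold change was -0.23 in bPYX+NT3 (adjusted p = 0.368) and -0.53 in bPYX+GFP, and bPYX+NT3 was 0.31 higher than bPYX+GFP (adjusted p = 0.217, edgeR). Over the 5 tested inflammation miRNAs the values of bPYX+NT3 over naive ran from -0.32 to 0.67. Of these, 3 were positive and 2 negative, with a median of 0.12. None of 9 blood and immune cell miRNAs had an unadjusted p under 0.05, with values from -0.46 to 0.60, beside 13.7% of all miRNAs. A list of 9 cannot be told from that share.

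In the sensory neuron cluster, miR-182 was the member at an unadjusted p under 0.05, out of 4 tested. On the TMM scale it was at 19520 to 26210 CPM (median 23270) in naive and 22490 to 27780 CPM (median 27150) in bPYX+NT3 ganglia (0.19 ± 0.09, adjusted p = 0.349, edgeR), with a p not under 0.05 in 5 of 21 alternatives, and bPYX+GFP gave 0.20. These ranges overlapped, whereas the values without TMM given above did not. miR-183-3p from the same transcript gave 0.25 (adjusted p = 0.349, edgeR) and miR-96-5p gave -0.04 (adjusted p = 0.886). miR-96-3p gave -0.19, so 2 of the 4 had positive and 2 negative values, with a median of 0.08. All 4 glial miRNAs tested had negative values and none had a p under 0.05, beside a median of -0.01 and 13.7% over all miRNAs. A list of 4 cannot be told from that share. miR-204-5p, a miRNA of satellite glia and Schwann cells, was at 6924 to 11920 CPM in naive and 5316 to 10560 CPM in bPYX+NT3 ganglia (-0.23, 95% interval -0.56 to 0.10). Its bPYX+NT3 replicates 3 and 5 (5316 and 6031 CPM) were the only 2 below the naive range. The log2 fold change of miR-204-5p ran from -0.32 to -0.13 over the alternatives.

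Markers of other tissues were mixed. Of 4 tested muscle miRNAs, miR-1b was higher (7686 to 9380 CPM in naive, 7883 to 13370 CPM in bPYX+NT3, 0.30 ± 0.10, adjusted p = 0.247, edgeR) and miR-499-5p lower (-0.24 ± 0.11, adjusted p = 0.349), the latter in only 9 of 21 alternatives. That is 50.0% of the list, beside 13.7% of all miRNAs in either direction, and 4 miRNAs are too few to read a share from. miR-1b shares the seed GGAAUGU with miR-1-3p and miR-206, and miR-1-3p was listed at 0. How reads of near-identical sequences were shared between these names was not tested. miR-133b-3p and miR-206-3p, the other muscle miRNAs, gave 0.19 (adjusted p = 0.534) and 0.23 (adjusted p = 0.805). The epithelial miR-205 was at 54.9 to 80.7 CPM in naive and 61.8 to 151 CPM in bPYX+NT3 ganglia (0.45 ± 0.21, adjusted p = 0.349), the largest p of the 51, which was not under 0.05 in 7 of 21 alternatives. Smooth muscle (4 tested), fibroblast (3), endothelial (1) and Hox cluster (4) miRNAs held none at a p under 0.05, beside 13.7% of all miRNAs. Lists this short cannot be told from that share.

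**Figure D5:**
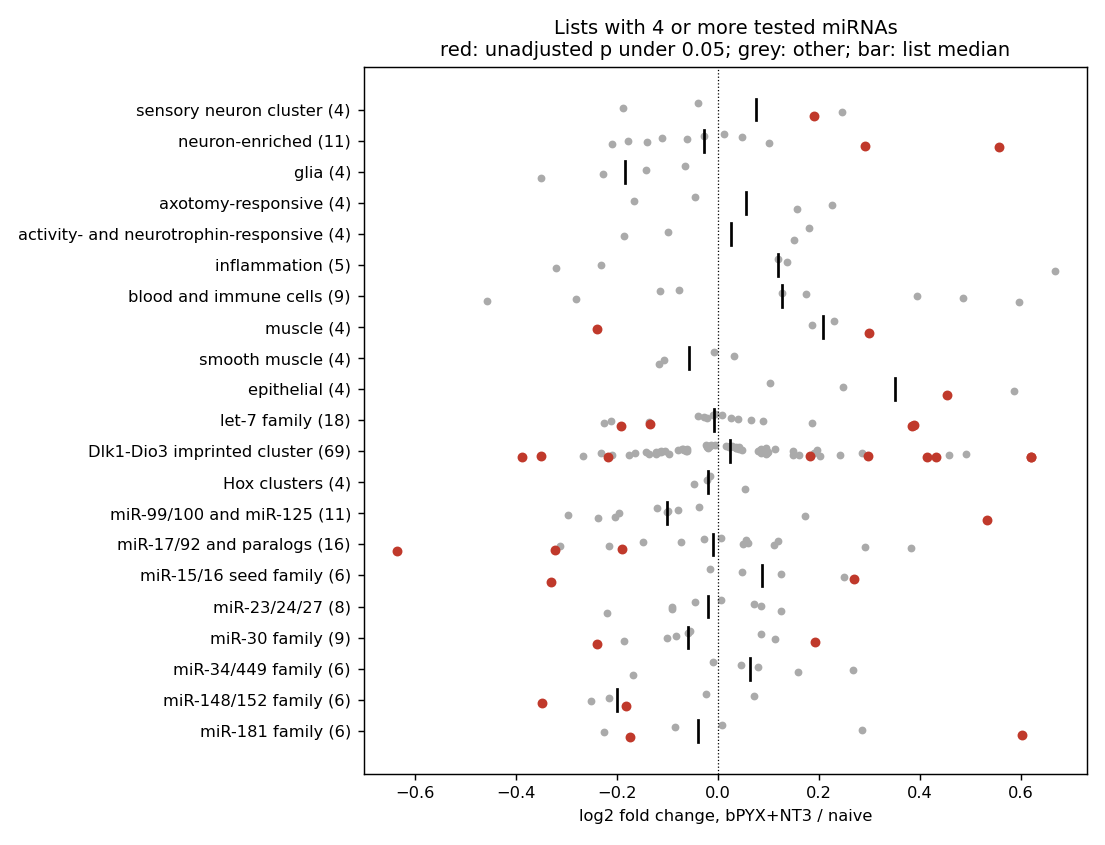
Log2 fold change of bPYX+NT3 over naive ganglia for every tested miRNA of the lists with 4 or more tested miRNAs (number in brackets), in red where the unadjusted p was under 0.05, with the list median as a bar. List medians lie between -0.20 (the miR-148 and miR-152 family) and 0.35 (epithelial), and most lists hold red points on both sides or none.

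Among families, 2 of 6 miRNAs of the miR-148 and miR-152 family were lower and 0 higher (33.3%, beside 6.43% lower over all miRNAs), both from the miR-152 precursor (miR-152-3p -0.18 ± 0.07, adjusted p = 0.313; miR-152-5p -0.35 ± 0.14, adjusted p = 0.319, edgeR), with a list median of -0.20. The p of miR-152-3p was not under 0.05 in 5 of 21 alternatives and that of miR-152-5p in 3. The miR-30 family had 1 higher and 1 lower of 9 (22.2%), and the miR-181 family 1 and 1 of 6 (33.3%), beside 13.7% of all miRNAs. In the miR-99/100 and miR-125 list 1 of 11 was higher (9.09%, beside 7.24% higher over all miRNAs). This miRNA, miR-99a-3p, the rare arm, was at 35.2 to 42.1 CPM (median 36.1) in naive and 37.9 to 84.1 CPM (median 45.6) in bPYX+NT3 ganglia (0.53 ± 0.17, adjusted p = 0.191, edgeR). Replicates 3 and 5 were the highest, at 65.3 and 84.1 CPM, and the other bPYX+NT3 rats had 37.9 to 48.1 CPM. miR-99a-5p, the most abundant miRNA of naive ganglia, was at 196900 to 244200 CPM and 134900 to 217600 CPM (-0.24 ± 0.11, adjusted p = 0.349), and these ranges overlapped. Its bPYX+NT3 replicates 3 and 5 were the lowest, at 134900 and 163600 CPM.

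miR-324-3p and miR-26b-5p belonged to none of the lists. miR-324-3p was at 4.35 to 6.22 CPM (median 4.88) in naive and 4.84 to 9.67 CPM (median 8.00) in bPYX+NT3 ganglia (0.62 ± 0.17, adjusted p = 0.191, edgeR), with 5 of 6 bPYX+NT3 libraries above every naive library and no like difference in miR-324-5p (0.07). miR-26b-5p, an abundant miRNA, was at 3606 to 5152 CPM (median 4001) and 4378 to 6336 CPM (median 4970; 0.32 ± 0.11, adjusted p = 0.191), with replicates 3 and 5 as the only bPYX+NT3 libraries above the naive range. In all, 17 of the 51 lay outside the 27 lists.

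miR-741-3p had the largest fold change, -4.69 ± 1.48 (adjusted p = 0.191, edgeR), and it rested on 1 library. This X-linked miRNA, from a cluster known mainly from testis, was at 564 CPM in naive replicate 1 and at 0.803 to 6.43 CPM in the other 5 naive libraries, with 0.408 to 12.6 CPM in bPYX+NT3 ganglia. Without naive replicate 1 the log2 fold change was 0.02.

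The 51 were not set apart by length or arm. Their median length was 22 bases, as over all miRNAs, and 22 of 167 tested 5p arms and 24 of 176 tested 3p arms were among them. Median GC content was 42.9% in the higher and 47.6% in the lower ones, beside 47.8% of all those with a sequence (48 of the 51 had one). The median coefficient of variation between rats over the 373 miRNAs was 13.9% in naive, 16.9% in bPYX+NT3 and 12.9% in bPYX+GFP ganglia. Whether the spread differed between groups was not tested.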

How the data were processed

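Small RNA from DRG was sequenced with 50-base single-end reads. Per the study's methods and the submitters' processing notes, the authors demultiplexed with bcl2fastq (1.8.4), aligned with Bowtie2 to Rnor_5.0 and counted with HTSeq; the annotation release is not given in the sources used here. The deposited values are raw counts per mature miRNA, not normalized, with 5 total rows that name no miRNA and were left out of library sizes. Reads of low mapping quality, one of these rows, took 28.0% to 35.1% of a library. Groups came from the sample titles.

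Here, miRNAs with more than 10 counts in at least 6 of 18 libraries were tested with edgeR (4.0.16; R 4.3.3), TMM scaling and the two-sided quasi-likelihood test on the 12 libraries, without covariates. Adjusted p-values are Benjamini-Hochberg over 373 miRNAs. CPM are scaled by TMM over 18 libraries, apart from the values given as without TMM scaling. SE is the absolute log2 fold change over the square root of F, and 95% intervals use the same degrees of freedom. bPYX+GFP fits were made the same way. Arm ratios used counts plus 0.5. Alternatives were DESeq2 (1.42.0), edgeR's likelihood ratio test, a robust prior, other scalings and filters, a fit of all 3 groups, a replicate block and leaving out each library. Named miRNAs were the 20 of smallest p, those whose groups did not overlap, the 3 of largest fold change, their opposite arms, and up to 2 per list, and any other was picked after its values were seen. The comparison, lists and members were chosen with earlier results of these data known. No batch is given in the labels; the number of rats limits the precision, and counts of PCR reads are not independent molecules.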

Additional observations from a re-analysis of the deposited data

Results flagged for a closer look

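Among the 57 named miRNAs, each group of 6 was searched for a library far from the others (its gap to the nearest library, divided by the whole range, above Dixon's 95% value). Of 114 groups 6 held one, about the number that 1 in 20 gives by chance (5.7). miR-741-3p was at 563.8 CPM in naive replicate 1, with the next naive library at 6.435 CPM, and at 12.64 CPM in bPYX+NT3 replicate 5, with the next at 3.0 CPM. Naive replicate 1 was also the highest for miR-99a-3p (42.11 CPM, next 37.12). Naive replicate 3 was the highest for miR-363-5p (8.522 CPM, next 5.588) and for miR-455-5p (632.1 CPM, next 493.5). miR-10a-5p was at 223100 CPM in bPYX+NT3 replicate 4, with the next bPYX+NT3 library at 162100 CPM. The part of these libraries in the results was tested only by leaving each out.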

How the results depend on the processing

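With each library left out in turn, the number of miRNAs at an unadjusted p under 0.05 was 32 to 68 (51 with all 12), that past adjustment 0 to 4, that of groups without overlap 5 to 10, and that of arm ratios 13 to 22 (20 with all). At the same scaling, leaving out a library cannot make separate groups overlap. The number of groups without overlap could therefore only stay or rise. The other scalings, filters and tests gave 42 to 58 at an unadjusted p under 0.05 of the same 373 miRNAs, 47 of 251 with more than 100 counts and 75 of 567 without a filter (33 higher, 42 lower). The likelihood ratio test, DESeq2 and the fit of all 3 groups each put 1 miRNA past adjustment, miR-361-3p. Groups did not overlap in 3 miRNAs with library size only and in 3 with more than 100 counts. Of 34 named miRNAs at an unadjusted p under 0.05, 18 stayed so in all alternatives run, and miR-741-3p was the one that changed sign, over -5.74 to 0.0233 with a library left out.

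Of named miRNAs at an unadjusted p of 0.05 or more, the sign changed with single libraries in miR-370-5p (-0.035 to 0.1148), miR-150-5p (-0.1752 to 0.1749), miR-21-5p (-0.1978 to 0.0849), miR-143-3p (-0.0609 to 0.0952), miR-770-3p (-0.0684 to 0.0514), miR-496-5p (-0.1287 to 0.138), miR-27b-3p (-0.0874 to 0.014), miR-26b-3p (-0.0838 to 0.1041) and miR-10a-5p (-0.0293 to 0.1084). It changed with library size only in miR-770-3p (0.0427), miR-496-5p (0.0369), miR-26b-3p (0.0288), miR-21-5p (0.0402), miR-143-3p (0.0573) and miR-27b-3p (0.0236). With more than 100 counts it changed in miR-770-3p (0.0146) and miR-143-3p (0.0294), and in miR-143-3p also with median-of-ratios factors (0.0108), DESeq2 (0.0108) and no filter (0.0105). The cause was not tested.

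The replicate numbers did not pair the rats: deviations of same-numbered rats correlated at -0.38 to 0.37, and 2 of 6 rats matched their own number best. With the number as a replicate block, 48 miRNAs had an unadjusted p under 0.05 (38 of the 51) and none passed adjustment, and miR-150-5p (0.0184) and miR-143-3p (0.0033) changed sign.

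Depth limits the rarest miRNAs most, with intervals about 0.49 wide to each side under 10 CPM. The quasi-likelihood test on the 12 libraries leaves no call after adjustment, so single miRNAs are open to error.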
